A study of Mus musculus with 6 samples.

Results

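The 10 genes described here build or read the address code of high endothelial venules, and were followed across sorted mammary cells. They are Fut7, Fut4, Gcnt1, B3gnt3, St3gal6, Chst4, Chst2, Glycam1, Sele and Selp. A probe was taken as theirs when it was no control spot and its annotated RefSeq transcript maps to one of these symbols, which gave 14 probes for 10 genes out of 20887 gene symbols with a probe and 15680 genes tested. The genes were put together with the difference between the cell groups already known, so their values in that comparison are given as a description without a test. Two-colour arrays read total RNA of Lgr5-positive cells (3 arrays) and Lgr5-negative cells (3 arrays). The glands of both fractions were those of virgin mice (strain C57/B6) with the lgr5-egfp-ires-creert2 allele, in which EGFP is driven from the Lgr5 locus, and both fractions lay in the sort gate P4, defined as Lin-CD24+CD29hi. Lgr5-positive cells were the GFP+ cells of that gate and Lgr5-negative cells the GFP- cells. Every sample was labelled with Cy5 and set against Cy3-labelled universal mouse reference RNA, which pools 11 cell lines, with no dye swap. Neither an age nor the antibodies behind Lin stand in the labels, and EGFP only reports the Lgr5 locus. Nothing says that replicates 1 to 3 came from separate mice, so the p-values below measure the spread between these samples, which may be technical.

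High endothelial venules are the vessels through which lymphocytes enter lymph nodes. Their cells carry sialomucins whose sugar chains end in 6-sulfo sialyl Lewis X, a structure that a selectin on lymphocytes binds. Making it takes a core branch or extension, a sialic acid, a fucose and a sulfate, each added by its own Golgi enzyme. E-selectin and P-selectin are receptors on inflamed endothelium that bind related sugars on leukocytes. In the mammary gland Glycam1 is also known as a secreted mucin of milk.

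Promoter sequences are shown for some members that differ below and whose windows hold matches to the letters searched. Glycam1 and Sele are included, whose promoters share a run of letters. The sequences are those of the enzymes Fut7, Gcnt1 and St3gal6, the mucin Glycam1 and the vessel receptor Sele. Each is 300 bases of the RefSeq sequence of build GRCm38.p6, 250 before and 50 after an annotated start, read 5′ to 3′ on the gene's strand. The 10 members have 14 such windows, since Fut7, Gcnt1 and St3gal6 have more than 1 start. For these genes the start with matches is shown. The window of Chst4, which also differed widely, matched none of the letters and is not shown. Capitals mark matches, on either strand, to the letters searched. The letters were TATAAA for the TATA box, TTCNNNGAA for a STAT site, GGGCGG for a KLF/SP site, AGGTCA for a nuclear receptor half-site and CCGGAAGT for an ETS site, beside the NF-kappaB consensus.
Fut7, start 1, chr2:25422992-25423291, plus strand: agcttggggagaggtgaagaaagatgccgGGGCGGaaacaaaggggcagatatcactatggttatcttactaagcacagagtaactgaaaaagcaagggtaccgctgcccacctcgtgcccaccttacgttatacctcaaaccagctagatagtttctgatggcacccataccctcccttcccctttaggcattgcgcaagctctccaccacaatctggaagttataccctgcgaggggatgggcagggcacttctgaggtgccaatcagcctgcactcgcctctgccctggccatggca
Gcnt1, start 1, chr19:17372795-17373094, minus strand: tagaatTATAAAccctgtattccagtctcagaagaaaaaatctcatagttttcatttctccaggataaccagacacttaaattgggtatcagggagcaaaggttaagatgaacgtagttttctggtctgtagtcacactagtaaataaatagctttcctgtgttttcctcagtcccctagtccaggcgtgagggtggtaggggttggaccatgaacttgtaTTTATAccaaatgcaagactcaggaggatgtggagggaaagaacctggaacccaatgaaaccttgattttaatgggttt
St3gal6, start 2, chr16:58523377-58523676, minus strand: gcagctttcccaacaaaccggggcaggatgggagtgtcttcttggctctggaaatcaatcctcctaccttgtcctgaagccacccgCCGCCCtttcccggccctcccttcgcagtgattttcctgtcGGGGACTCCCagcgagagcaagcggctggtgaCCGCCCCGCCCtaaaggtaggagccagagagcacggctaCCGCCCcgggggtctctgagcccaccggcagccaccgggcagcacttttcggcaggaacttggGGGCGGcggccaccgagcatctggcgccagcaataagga
Glycam1, chr15:103565032-103565331, minus strand: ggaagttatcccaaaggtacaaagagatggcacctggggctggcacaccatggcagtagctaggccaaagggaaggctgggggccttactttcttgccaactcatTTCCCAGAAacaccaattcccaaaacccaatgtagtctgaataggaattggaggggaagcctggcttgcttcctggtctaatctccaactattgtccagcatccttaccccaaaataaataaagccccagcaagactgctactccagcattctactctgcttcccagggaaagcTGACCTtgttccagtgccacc
Sele, chr1:164047984-164048283, plus strand: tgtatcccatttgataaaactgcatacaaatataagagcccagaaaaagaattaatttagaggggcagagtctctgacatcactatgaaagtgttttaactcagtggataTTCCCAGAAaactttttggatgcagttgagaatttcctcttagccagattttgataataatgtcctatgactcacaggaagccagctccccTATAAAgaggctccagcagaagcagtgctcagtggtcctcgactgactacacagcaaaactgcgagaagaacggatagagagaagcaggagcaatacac

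The Glycam1 and Sele windows share a STAT site match of the same 9 letters, namely TTCCCAGAA, at -145 to -137 of Glycam1 and at -140 to -132 of Sele. A STAT site occurs in 8.3% of all 32851 promoter windows of this length, and in windows of 2 of the 10 members. Sele also has a TATA box at -49 to -44. Gcnt1 has one on each strand, at -244 to -239 and at -29 to -24. TATA boxes occur in 13.6% of all windows. Glycam1 carries a nuclear receptor half-site at 30 to 35 bases after its start, and Selp one at -93 to -88, where 16.3% of all windows hold one. The St3gal6 window holds the NF-kappaB match GGGGACTCCC at -123 to -114, the only one among the members, against 4.51% of all windows. KLF/SP sites lie in windows of 4 members (Fut7, Chst2, St3gal6 and B3gnt3), against 35.7% of all windows, and 2 of the 5 in St3gal6 overlap by 1 base. No member window matched the ETS letters, which 3.89% of all windows hold, and those of Chst4 and Fut4 matched none of the 6. Members are counted as genes over all their windows, 14 for the 10 genes, while the shares are of single windows. The counts and the shares are therefore not directly comparable. A match describes letters only.

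The difference between Lgr5-positive and Lgr5-negative cells was large in Fut7, Gcnt1, Chst4 and St3gal6, which were lower in Lgr5-positive cells by 8.20-fold to 26.9-fold. Chst2 was lower by 2.00-fold, Sele by 3.33-fold and Selp by 2.42-fold. Glycam1 was lower by 1.88-fold as a ratio to the reference RNA but by 23.7-fold in the Cy5 channel alone. Fut4 and B3gnt3 differed little. As a group, 9 of the 10 members were lower in mean, and in 6 the arrays of the groups did not overlap, where 8.14% of all genes tested lay lower without overlap and 4.06% higher. Differences of -2 or lower on the log2 scale were seen in 4 members and in 1.1% of all genes. Because the genes were picked on this contrast, nothing is read from these counts. In bulk RNA, fewer cells that make a transcript and less of it per cell cannot be told apart.

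The arrays differed in brightness. Median Cy5 signal, in units of pixel brightness, was 137 to 169 on Lgr5-positive arrays and 200 to 278 on Lgr5-negative arrays, over a background of 64 to 76. The share of probes well above background was 50.9% to 67.3% on Lgr5-positive arrays and 56.3% to 74.4% on Lgr5-negative arrays, and 0 spots were saturated. Loess within each array removes trends of the ratio with brightness, and whether the dimmer Lgr5-positive arrays have a part in single values was not tested. The number of arrays, 3 per group, limits the precision. All values called log2 ratios are log2 of Cy5 over Cy3 after that step, and all differences are Lgr5-positive minus Lgr5-negative.

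Fut7 is the fucosyltransferase that completes sialyl Lewis X in leukocytes and high endothelial cells. Its brighter probe, A_51_P445473, read a Cy5 signal of 205, 438 and 232 on Lgr5-positive arrays 1 to 3, against 6206, 13876 and 18800 on Lgr5-negative arrays 1 to 3. The log2 ratios were 0.39, 1.40 and 0.33 in Lgr5-positive cells and 5.28, 5.49 and 5.60 in Lgr5-negative cells. Every Lgr5-positive array lay far below every Lgr5-negative one, with a gap of 3.88 between the nearest arrays, and Lgr5-positive replicate 2 was the highest of its group. The means were 0.71 ± 0.60 in Lgr5-positive and 5.46 ± 0.16 in Lgr5-negative cells (SD, n = 3 each). The difference of -4.75, or 26.9-fold, was the lowest of the 15680 genes tested, and the pairs of equal replicate number gave -4.89, -4.10 and -5.27. A second Fut7 probe, A_55_P2182675, read 74, 84 and 79 on Lgr5-positive arrays, not well above background on any, and 377, 641 and 1260 on Lgr5-negative arrays, so no fold is given for it. It lay in the same direction.

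Fut4 is the other fucosyltransferase that works on selectin ligands, and it also makes Lewis X without sialic acid. Its Cy5 signal was 173, 163 and 215 on Lgr5-positive arrays and 250, 251 and 293 on Lgr5-negative arrays. After normalization the log2 ratios overlapped, at 0.59, 0.25 and 0.30 in Lgr5-positive and 0.42, 0.25 and 0.32 in Lgr5-negative cells. The difference was 0.05 between means of 0.38 ± 0.19 and 0.33 ± 0.08 (SD, n = 3 each), within the spread of the arrays. A dimmer Fut4 probe, A_52_P200458, was well above background on 0 Lgr5-positive and 2 Lgr5-negative arrays. It was lower in Lgr5-positive cells in each pair, with overlapping groups and signals near background, so no fold is given for it. By the brighter probes, Fut7 differed by a wide gap and the groups overlapped in Fut4.

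Gcnt1 makes the core 2 branch on which selectin ligands of leukocytes and many of those of high endothelial venules are built. The Cy5 signal of its brighter probe, A_52_P21550, was 118, 215 and 156 on Lgr5-positive arrays and 1082, 5698 and 6928 on Lgr5-negative arrays. As log2 ratios these were -1.84, -1.19 and -1.54 in Lgr5-positive and 1.49, 3.34 and 3.49 in Lgr5-negative cells. The groups were well apart, and within the Lgr5-negative group replicate 1 was the low one. The means, -1.52 ± 0.33 in Lgr5-positive and 2.77 ± 1.11 in Lgr5-negative cells (SD, n = 3 each), differed by -4.30, or 19.7-fold. By this ratio Gcnt1 ranked 7 from the lowest among all genes tested. The pairs gave -3.34, -4.52 and -5.03, and the difference was -4.94 without Lgr5-negative replicate 1. The Lgr5-positive signal was well above background on 2 of 3 arrays. A second probe, A_55_P2084739, was above background on 0 Lgr5-positive and 2 Lgr5-negative arrays. It gave at least 1.93-fold between the group means, in the same direction.

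B3gnt3 extends the core 1 chain, the second arm on which such selectin ligands sit. It had 149, 202 and 290 in Cy5 on Lgr5-positive arrays and 242, 278 and 427 on Lgr5-negative arrays. The log2 ratios of 0.34, 0.30 and 0.77 in Lgr5-positive cells overlapped those of 0.60, 0.66 and 0.79 in Lgr5-negative cells. The difference was -0.22 between means of 0.47 ± 0.26 and 0.68 ± 0.09 (SD, n = 3 each), and in the Cy5 channel alone the groups had equal means to 2 decimals. As ratios, the B3gnt3 pairs were at -0.26, -0.36 and -0.02. Of the core enzymes among the members, Gcnt1 thus differed by a wide gap, while the B3gnt3 groups overlapped.

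St3gal6 is a sialyltransferase that caps the chains of selectin ligands. It read 167, 596 and 243 in Cy5 on Lgr5-positive arrays and 1201, 4286 and 4485 on Lgr5-negative arrays. Log2 ratios were -0.81, 1.06 and -0.39 in Lgr5-positive and 2.07, 3.40 and 3.50 in Lgr5-negative cells. Lgr5-positive replicate 2 came nearest to the other group, yet the lowest Lgr5-negative array still lay 1.00 above it. The means were -0.05 ± 0.99 in Lgr5-positive and 2.99 ± 0.80 in Lgr5-negative cells (SD, n = 3 each), a difference of -3.04 or 8.20-fold. The pairs gave -2.88, -2.33 and -3.89. Its Cy3 signal was alike in both groups, at 454 to 480 on Lgr5-positive and 420 to 479 on Lgr5-negative arrays, so the difference lay in the sample channel.

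Chst4 adds the 6-sulfate of the selectin ligand and is the sulfotransferase known for its restriction to high endothelial cells. Its single probe read 102, 112 and 125 in Cy5 on Lgr5-positive arrays, with 1 of the 3 well above background, and 998, 2258 and 5096 on Lgr5-negative arrays. Its log2 ratios were 0.40, 0.35 and 0.68 in Lgr5-positive and 3.33, 4.08 and 4.51 in Lgr5-negative cells. All Lgr5-negative arrays were high and all Lgr5-positive ones near background. The means of 0.48 ± 0.18 in Lgr5-positive and 3.97 ± 0.60 in Lgr5-negative cells (SD, n = 3 each) differed by -3.50, or 11.3-fold, with pairs at -2.93, -3.73 and -3.83. Cy3 was 66 to 68 on Lgr5-positive and 104 to 214 on Lgr5-negative arrays.

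Chst2, the related sulfotransferase with a wider range of tissues, differed less. Its Cy5 signal was 182, 163 and 236 on Lgr5-positive arrays and 354, 420 and 1334 on Lgr5-negative arrays. On the ratio scale the values were -0.21, -0.40 and 0.02 in Lgr5-positive and 0.26, 0.38 and 1.78 in Lgr5-negative cells. The groups did not overlap, but Lgr5-negative replicate 3 stood well above all other arrays. The means of -0.20 ± 0.21 in Lgr5-positive and 0.81 ± 0.84 in Lgr5-negative cells (SD, n = 3 each) differed by -1.003, and by -0.52 without Lgr5-negative replicate 3. A second Chst2 probe was above background on 0 arrays.

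**Figure D1:**
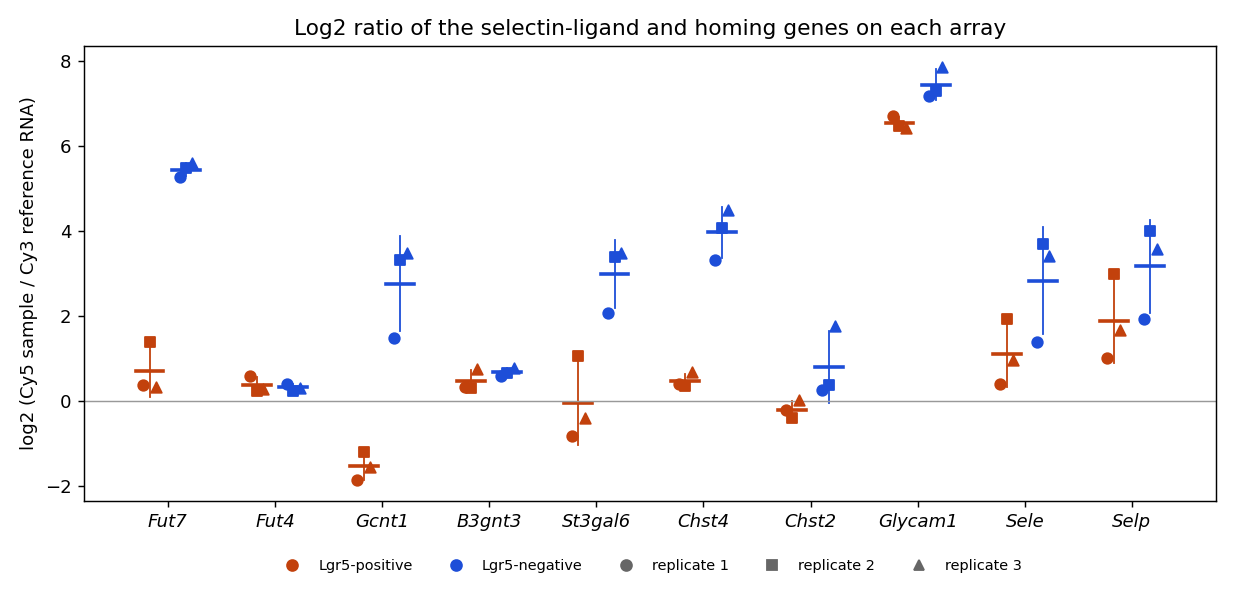
Log2 ratio of Cy5 over Cy3 (y axis) of the 10 genes on each of the 3 Lgr5-positive (orange) and 3 Lgr5-negative (blue) arrays; symbols mark the replicate number, wide bars the mean and thin lines 1 SD to either side. Fut7, Gcnt1, St3gal6 and Chst4 stand clearly apart between the groups, Chst2 and Glycam1 by small gaps, and Fut4, B3gnt3, Sele and Selp overlap.

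Glycam1 is a secreted sialomucin that carries selectin ligands in high endothelial venules. Its Cy5 signal was 6718, 25364 and 11107 on Lgr5-positive arrays and 293480, 440425 and 487018 on Lgr5-negative arrays, which is 43.7, 17.4 and 43.9 times as bright on the Lgr5-negative array of pairs 1, 2 and 3. In Cy3 the same probe read 196, 525 and 288 on Lgr5-positive arrays and 2879, 2108 and 2155 on Lgr5-negative arrays. The same reference RNA was in Cy3 on all 6 arrays, yet Cy3 was 7.62-fold higher on the Lgr5-negative ones. The log2 ratios were closer than the Cy5 signals, at 6.71, 6.49 and 6.43 in Lgr5-positive and 7.18, 7.31 and 7.88 in Lgr5-negative cells. They differed by -0.91 between means of 6.54 ± 0.15 and 7.46 ± 0.37 (SD, n = 3 each), with no overlap and a gap of 0.47. In the Cy5 channel alone, quantile-normalized between arrays, the difference was -4.57, with pairs at -4.50, -4.30 and -4.90. With median centring in place of loess the ratio differed by -1.80.

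Cy3 was also higher on Lgr5-negative arrays at most bright probes with a large Cy5 difference, but not at all. In 47 probes, Glycam1 and Fut7 included, Cy5 was at least 8-fold higher on Lgr5-negative arrays and averaged over 10000 there. Their median Cy3 fold, Lgr5-negative over Lgr5-positive, was 1.5, and Cy3 was higher on Lgr5-negative arrays in 78.7% of them. Of the 4 brightest, Glycam1 included, 50% had higher Cy3 there, with folds of 0.944 to 10.65. A further 1227 probes averaged over 10000 in Cy5 on Lgr5-negative arrays but differed by less than 1.5-fold in Cy5. Their median Cy3 fold was 0.872. For Glycam1, Cy3 was 2.07% to 2.91% of Cy5 on Lgr5-positive arrays and 0.443% to 0.981% on Lgr5-negative arrays. What raised Cy3 at these spots was not tested. The other members moved less in Cy3, with Lgr5-negative over Lgr5-positive folds of 2.06 for Chst4, 1.69 for Fut7 and 0.932 to 1.44 for the remaining 7. The ratio and the Cy5 channel gave like differences for Fut7 (-4.75 and -4.80), Gcnt1 (-4.30 and -3.93), Chst4 (-3.50 and -3.77), St3gal6 (-3.04 and -2.65) and Selp (-1.28 and -1.62). B3gnt3, at -0.22 as a ratio, had equal means in Cy5. Of the 10 members Glycam1 moved the most, at -0.91 as a ratio and -4.57 in Cy5.

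**Figure D2:**
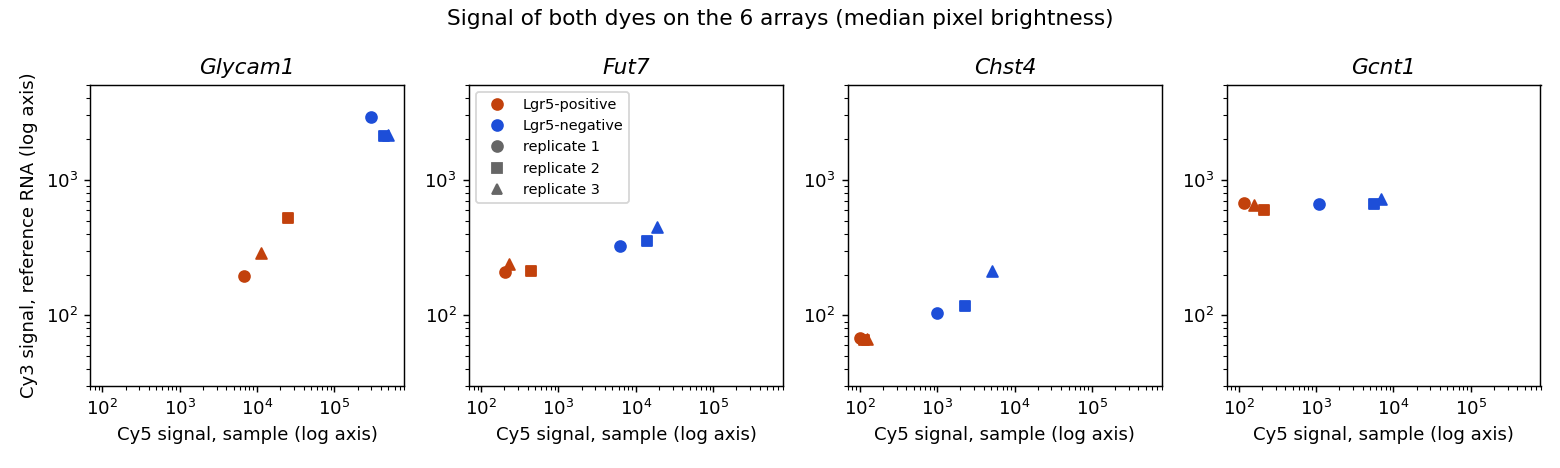
Cy3 signal of the reference RNA (y axis, log) against Cy5 signal of the sample (x axis, log), both as median pixel brightness, for Glycam1, Fut7, Chst4 and Gcnt1 on the 6 arrays. At the Glycam1 probe Cy3 climbs with Cy5, at 196 to 525 on Lgr5-positive and 2108 to 2879 on Lgr5-negative arrays, while at the Gcnt1 probe Cy3 stays between 599 and 722.

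Milk protein genes were set beside Glycam1, since it is also a milk mucin. The casein genes Csn2, Csn3 and Csn1s2a were not well above background on any of the 6 arrays, and Csn1s1 was so on 1 Lgr5-negative array. Wap, the whey acidic protein, had 2 probes, each above background on 1 array. The 4 milk genes tested of 9 listed (Xdh, Csn1s2b, Lalba and Btn1a1) had a median difference of -0.12, and 0 passed limma's test with or without the replicate number as a block, nor at an unadjusted p under 0.05. Xdh had a difference of -0.27 and Csn1s2b one of -0.17, each with an adjusted p of 1.00. By another probe Csn1s2b differed by 0.26, in the opposite direction. Like Glycam1, the 4 tested genes were well above background on all 6 arrays, with Cy5 of Csn1s2b at 277, 325 and 420 on Lgr5-positive and 504, 734 and 902 on Lgr5-negative arrays.

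**Figure D3:**
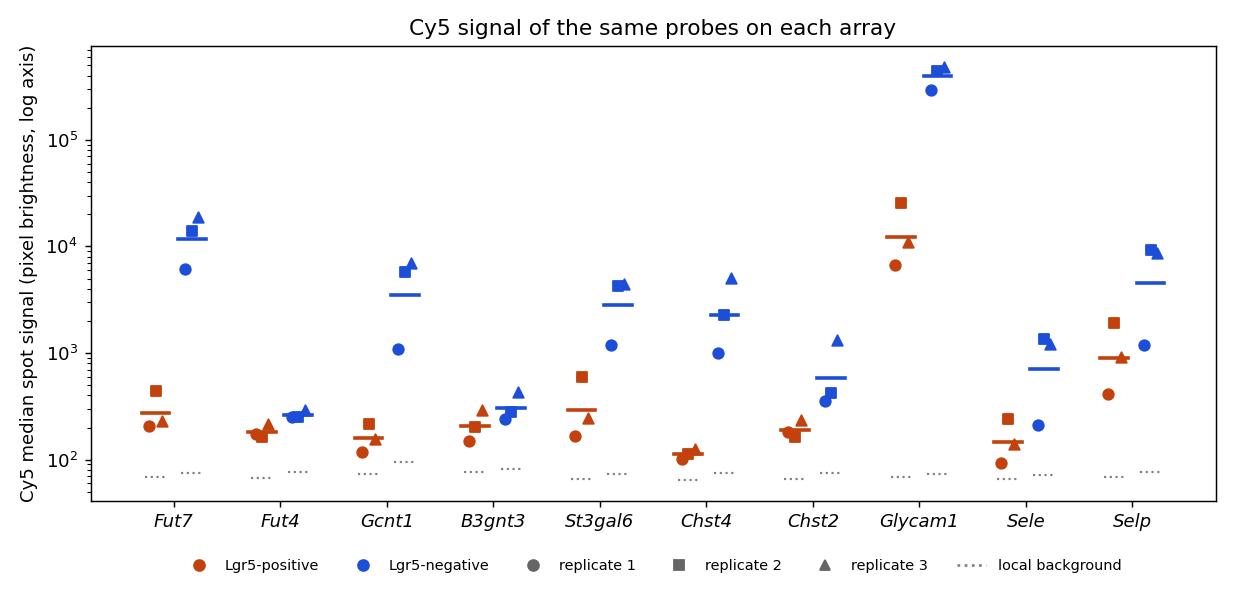
Cy5 median spot signal (y axis, log, in pixel brightness) of the same probes on the 3 Lgr5-positive (orange) and 3 Lgr5-negative (blue) arrays; wide bars are geometric means and dotted lines the mean local background. Glycam1 lies between 6718 and 25364 on Lgr5-positive arrays and between 293480 and 487018 on Lgr5-negative arrays, and Chst4 lies near background on the Lgr5-positive ones.

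Sele encodes E-selectin, which endothelium makes on inflammatory stimulation. Its Cy5 signal was 92, 240 and 141 on Lgr5-positive arrays, with 1 of 3 well above background, and 209, 1342 and 1228 on Lgr5-negative arrays. Its log2 ratios were 0.40, 1.94 and 0.97 in Lgr5-positive and 1.40, 3.70 and 3.42 in Lgr5-negative cells. Lgr5-positive replicate 2 was above Lgr5-negative replicate 1, so the groups overlapped, yet each pair was lower in Lgr5-positive cells, at -0.999, -1.76 and -2.44. The means of 1.11 ± 0.78 in Lgr5-positive and 2.84 ± 1.25 in Lgr5-negative cells (SD, n = 3 each) differed by -1.73, and by -1.30 to -2.45 when 1 array was left out, the widest without Lgr5-negative replicate 1.

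Selp encodes P-selectin, which endothelium and platelets store and bring to the surface when activated. Averaged over 10 spots of its probe, Cy5 was 411, 1895 and 927 on Lgr5-positive arrays and 1180, 9211 and 8625 on Lgr5-negative arrays. The log2 ratios were 1.02, 3.00 and 1.68 in Lgr5-positive and 1.94, 4.01 and 3.59 in Lgr5-negative cells. As with Sele, replicate 2 was the highest in each group and replicate 1 the lowest, and the groups overlapped. The pairs gave -0.92, -1.01 and -1.91. The means of 1.90 ± 1.01 in Lgr5-positive and 3.18 ± 1.09 in Lgr5-negative cells (SD, n = 3 each) differed by -1.28, by -0.84 without Lgr5-positive replicate 1 and by -1.895 without Lgr5-negative replicate 1.

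Within the Lgr5-negative group most members had the same array lowest and highest. Lgr5-negative replicate 1 was the lowest of its group in 9 of 10 members, all but Fut4, and Lgr5-negative replicate 3 the highest in 7. Lgr5-positive replicate 2 was the highest of its group in Fut7, Gcnt1, St3gal6, Sele and Selp, but the lowest in Fut4, Chst2, Chst4 and B3gnt3. The median difference of the members was -0.96, -1.38 and -2.17 in pairs 1, 2 and 3, and -1.51 over the groups, where the median of all 15680 genes was 0.01. Lower values in all 3 pairs were seen in 9 of 10 members and in 21.8% of all genes tested. Arrays of equal replicate number deviated together across all genes, with correlations of 0.675 to 0.819.

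**Figure D4:**
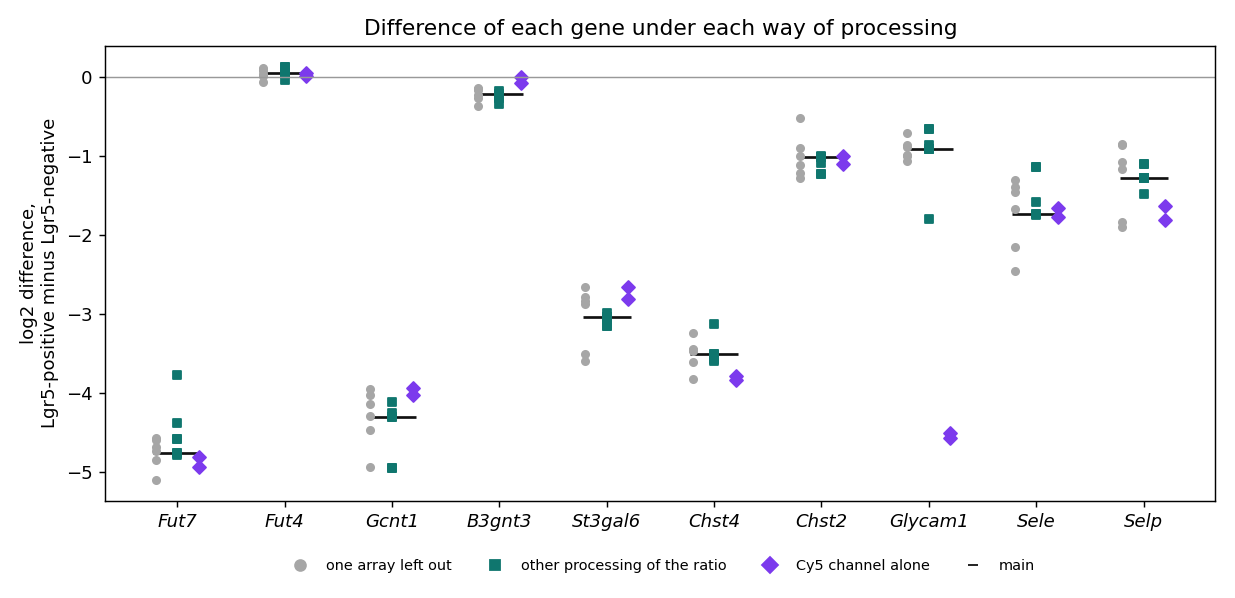
Log2 difference, Lgr5-positive minus Lgr5-negative (y axis), of the 10 genes; black bars give the value in the text, grey points those with 1 array left out, green squares other ways to process the ratio and violet diamonds the Cy5 channel alone. Fut7, Gcnt1, Chst4 and St3gal6 stay below -2.5 in each setting that gave them a value, and Glycam1 reads -0.91 as a ratio and -4.57 in quantile-normalized Cy5.

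Genes whose log2 ratio followed that of Fut7 were ranked by Pearson's r over the 6 arrays, as a description that mostly reflects the step between the groups. The 10 highest were Serpina1c, Ces2e, Dtx4, Serpina1a, Exoc3l4, Nfkbie, Rab3il1, Fxyd5, Gdf15 and Ephx2, with r of 0.998 to 0.994. Their differences ran widely in size. Serpina1a differed by -4.02 and Serpina1c by -3.62, which are near-identical antitrypsin copies whose probes may share signal. Ces2e, a carboxylesterase, differed by -3.18 and Nfkbie, an inhibitor of NF-kappaB, by -1.37. Dtx4 differed by only -0.40. Of the other members, Chst4 (r = 0.971), Gcnt1 (0.966) and St3gal6 (0.948) were nearest to Fut7, Glycam1 followed (0.890), and Selp (0.683), B3gnt3 (0.498) and Fut4 (-0.298) were farther. In all, 197 of the 15679 other genes had r of at least 0.95.

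Other genes of the pathway were read from limma's fit over all 15680 genes. With the group alone, 0.612% of all genes changed at an adjusted p under 0.05 (0.587% fell and 0.0255% rose). With the replicate number as a block, 7.72% changed (5.61% fell and 2.1% rose). The lists were drawn up with earlier results of these data known. Over the 61 of 69 listed pathway genes that were tested, 6 fell and 0 rose with the group alone, and 17 fell and 0 rose with the block. The count with the group alone was 0 without Lgr5-positive replicate 1 or 3 (18 and 17 at an unadjusted p under 0.05), 12 without Lgr5-negative replicate 1, 1 without Lgr5-negative replicate 2 and 3 without Lgr5-negative replicate 3.

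The enzymes that supply or share steps with the members showed few calls. Of 26 tested of 30, 0 passed limma's test with the group alone, 6 had an unadjusted p under 0.05, and 3 fell with the block. Their median was -0.30. Papss2, which makes the sulfate donor that Chst4 and Chst2 use, had Cy5 signals of 274, 576 and 322 on Lgr5-positive arrays and 852, 4830 and 8061 on Lgr5-negative arrays. It differed by -2.64 (SE 0.72), with an adjusted p of 0.256 for the group alone and 0.027 with the block. Chst1, a sulfotransferase that acts on galactose, differed by -1.15 (SE 0.31), at an adjusted p of 0.243 alone and 0.024 with the block. St3gal4, a sialyltransferase that acts beside St3gal6, differed by -0.86 and passed with the block only, at an adjusted p of 0.031. Papss1, the second enzyme for the sulfate donor, differed by 0.55 with overlap.

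Among the scaffold proteins that carry the sugars, 1 of 8 tested fell with the group alone and 3 with the block, and the median was -0.02. Madcam1, the mucosal addressin, read 290, 390 and 320 in Cy5 on Lgr5-positive arrays and 3490, 4373 and 5744 on Lgr5-negative arrays. Its groups were far apart, and it fell by 3.19 on the log2 scale (SE 0.20, limma adjusted p = 0.0069). A dimmer Madcam1 probe gave -0.35. Cd34, a sialomucin of vessels and of other cells, differed by -2.58 (SE 0.43, adjusted p = 0.067), and passed with the block at 0.0037. A second Cd34 probe gave -0.46. Emcn, endomucin, differed by -2.15 and passed with the block only, at an adjusted p of 0.017.

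Of the 8 genes for adhesion on the vessel side, 3 fell with the group alone and 4 with the block, around a median of -1.08. Jam3, a junction protein, had Cy5 signals of 161, 272 and 254 on Lgr5-positive arrays and 1748, 4638 and 7806 on Lgr5-negative arrays, and fell by 3.89 on the log2 scale (SE 0.36, limma adjusted p = 0.015). Icam2, a ligand of leukocyte integrins, fell by 2.43 (SE 0.36, limma adjusted p = 0.048), and this call was lost under 7 of the 10 other settings that kept all arrays. Vcam1 passed only with the block.

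In the HEV-associated list 4 of 14 tested were lower for the group alone and 8 with the block, with a median of -1.27. Enpp2 makes lysophosphatidic acid, which helps lymphocytes cross the venule wall. It read 404, 1082 and 457 in Cy5 on Lgr5-positive arrays and 7836, 38437 and 54536 on Lgr5-negative arrays, and fell by 4.50 (limma adjusted p = 0.029). Cxcl13, a chemokine for B cells, fell by 4.17 (limma adjusted p = 0.0097; 2 of 3 Lgr5-positive arrays above background), with Cy5 at 142, 300 and 152 on Lgr5-positive and 9330, 14462 and 14984 on Lgr5-negative arrays. As the scanner's ratio Cxcl13 differed by -2.09 (limma adjusted p = 0.071), no longer a call. Ch25h, an oxysterol enzyme, fell by 3.82 (SE 0.54, limma adjusted p = 0.045), a call lost under 6 of the 10 settings that kept all arrays. Madcam1, which stands in 3 of the lists, was the remaining one. Spns2, which exports sphingosine-1-phosphate, passed with the block only, as did Ackr1, a chemokine-binding receptor of venules, Sparcl1, a matrix protein, and Nr2f2, a transcription factor of veins. The genes of the lymphotoxin receptor pathway that drives these vessels gave smaller differences, with Ltbr at 0.03, Relb at -0.64 and Nfkb2 at -0.34.

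On the leukocyte side of the encounter, 0 of 7 tested genes passed with the group alone, 1 had an unadjusted p under 0.05, and the median was 0.12. S1pr1, a sphingosine-1-phosphate receptor of lymphocytes and of endothelium, differed by -2.97 (adjusted p = 0.103) and passed with the block at 0.0011. Ccr7 differed by -0.53 (adjusted p = 1.00).

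**Figure D5:**
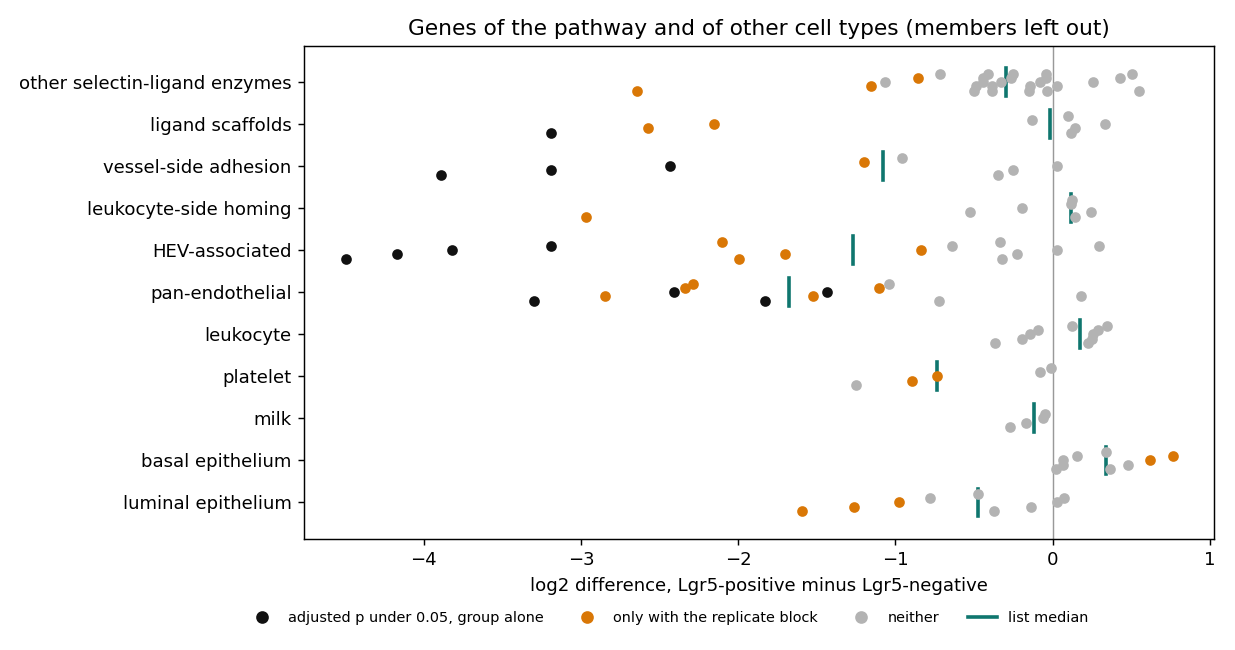
Log2 difference, Lgr5-positive minus Lgr5-negative (x axis), of the tested genes of 11 lists without the members; each point is a gene, vertical bars are list medians, and colour gives limma's call. HEV-associated and pan-endothelial genes lie mostly below 0, with medians of -1.27 and -1.68, and leukocyte, milk and basal genes lie near or above it.

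Markers of the cells that such a gate can hold were read beside the members. Of 12 pan-endothelial genes tested of 13, 4 fell with the group alone and 9 with the block, with a median of -1.68, and their summed Cy5 signal was 7962 to 22495 on Lgr5-positive arrays and 72608 to 184782 on Lgr5-negative arrays. Egfl7, a factor that endothelium secretes, fell by 3.30 (limma adjusted p = 0.029), Plvap, a protein of endothelial diaphragms, fell by 2.41 (0.035), and Sox18, a transcription factor, fell by 1.83 (0.048). By another probe Plvap differed by -1.02. The receptor Tie1 also passed (limma adjusted p = 0.048) with no Lgr5-positive array well above background, so its size is not given. With no array left out, Sox18 failed the test under 6 of 9 alternatives, Tie1 under 7 of 9, Plvap under 4 of 10 and Egfl7 under 2 of 10. Cdh5, picked after its values were seen, read 399, 2654 and 743 on Lgr5-positive arrays and 3466, 18135 and 17538 on Lgr5-negative arrays. Replicate 2 was thus the highest in each group, as in Sele and Selp, but the list as a whole had another order. Its summed Cy5 signal, like that of Egfl7 and of Plvap, was highest in Lgr5-positive replicate 2 (sum 22495) but in Lgr5-negative replicate 3 (sum 184782). Over all marker lists 5 of 71 genes fell with the group alone, and 0 did without Lgr5-positive replicate 1 or 3 or Lgr5-negative replicate 2 or 3 (22 to 24 at an unadjusted p under 0.05). The part of endothelial cells in the members' differences was not tested.

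Lists for other vessel types had medians nearer to 0. They were -0.55 for 4 venous genes, -0.54 for 5 arterial genes and -0.37 for 4 capillary genes, with 0 calls for the group alone, 2, 1 and 0 genes at an unadjusted p under 0.05, and 2, 3 and 1 lower with the block. Vwf, of the venous list, differed by -2.04 (adjusted p = 0.123) and passed with the block at 0.0040. Nr2f2 differed by -0.84, Gja4 by -0.96 and Gja5 by -0.54, while Rgcc was at -0.65 and Cd36 at -0.63. Of the lymphatic list 3 of 5 were tested, with a median of -0.17. That was the difference of Flt4, with 1 of 3 Lgr5-positive arrays well above background. Lyve1 fell by 4.12 (limma adjusted p = 0.044), a call lost under 6 of the 10 settings that kept all arrays. Pdpn differed by 0.61 and rose with the block, and the lymphatic regulator Prox1 was above background on 0 Lgr5-positive and 2 Lgr5-negative arrays.

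Leukocyte markers gave a median of 0.18, and 0 of 10 tested passed with the group alone, with the block or at an unadjusted p under 0.05. Their summed Cy5 signal, not normalized between arrays, was 7399 to 39778 on Lgr5-positive arrays and 10049 to 55084 on Lgr5-negative arrays. In replicates 1 and 3 of each group most of that sum came from a single gene. The sum therefore does not give the level of leukocyte markers in general. Ptprc, the pan-leukocyte CD45, differed by 0.29, and Lyz2 was above background on 0 arrays. Platelet genes, set beside Selp, had a median of -0.74 over 5 tested, 0 calls with the group alone, 3 at an unadjusted p under 0.05 and 2 lower with the block, among them Itga2b (-0.74) and Treml1 (-0.90). Their summed Cy5 signal was 1233 to 1486 on Lgr5-positive and 3153 to 6644 on Lgr5-negative arrays, and their part in Selp was not tested.

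The gate's own lineage was present in both fractions. Basal genes had a median of 0.34 over 9 tested, all higher in Lgr5-positive cells in mean, with 0 calls for the group alone, 2 at an unadjusted p under 0.05 and 2 higher with the block (Oxtr, 0.76, and Cnn1, 0.62). Their summed Cy5 signal was 251052 to 382109 on Lgr5-positive and 291834 to 507564 on Lgr5-negative arrays. Luminal genes had a median of -0.47, with 0 calls alone, 3 at an unadjusted p under 0.05 and 3 lower with the block, Foxa1 (-0.98) and Esr1 (-1.26) among them. By another probe Esr1 differed by only -0.136. Fibroblast genes had a median of -0.69, with 0 calls alone, 3 at an unadjusted p under 0.05 and 4 lower with the block, including Dcn (-1.38) and Pi16 (-1.26). Summed Cy5 of the fibroblast genes was 8398 to 17574 on Lgr5-positive and 27000 to 57232 on Lgr5-negative arrays.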

How the data were processed

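RNA of 6 samples was read on Agilent 2-colour arrays. The authors deposited the scanner's output of each array, written by Agilent Feature Extraction, version 11.0 in the submitters' processing notes and 11.0.1.1 per the file headers. Per the file headers it holds the median intensity of every spot and of its background for both dyes, flags, and a log10 ratio of Cy5 over Cy3. The deposited table of the series holds log2 ratios. Median intensities were corrected with normexp (offset 50) and normalized by loess within arrays in limma 3.58.1 (R 4.3.3). Control and outlier spots were left out, and spots of a probe averaged. Probes were named through RefSeq transcripts. Probes well above background in Cy5 on at least 3 of 6 arrays were kept, and the brightest stood for its gene. The limma fit had the group as its only term, with Benjamini-Hochberg adjustment over 15680 genes. It was run on simulated data with independent arrays, which cannot show how the fit behaves with arrays paired by replicate number. Where no array of a group was well above background, only a bound or no fold is given. The bound concerns the group means, not each pair, and was taken from Cy5 after loess and Aquantile steps, open to dye bias.

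The replicate numbers pair the arrays: arrays of equal number deviated together from their group means, at correlations of 0.675 to 0.819. For unequal numbers they were -0.67 to -0.16. These ranges are not independent, since deviations from a group's mean cancel out within that group. High values at equal numbers thus push the others below 0. The members and the gene lists were chosen with earlier results of these data known. Named genes are all members, in each list up to 4 genes past the threshold by size of change, filled up to 2 by the lowest p, and the 10 most like Fut7. Other genes named in passing were chosen after their values were seen. Alternatives changed the background correction, normalization, channel, filter, probe rule and replicate block, and left out each array. The single values of 2 listed leukocyte genes are not reported here, though the counts and sums of their lists include them.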

Additional observations from a re-analysis of the deposited data

How the results depend on the processing

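Of the 10 members, 8 kept their sign in the 14 or 15 alternatives that gave them a value, and Fut4 and B3gnt3, near 0, did not. Gcnt1, Chst4 and Sele did not pass a filter on all 6 arrays. The members' median, -1.51 as reported, was -2.15 in quantile-normalized Cy5 and -2.302 in median-centred Cy5, a setting chosen after the data were seen. Fut7 was -3.77 as the mean of its probes, of which 1 was above background on 0 Lgr5-positive arrays, and Sele was -1.13 as the scanner's ratio. The calls of limma depended more on the setting. As reported, 96 of all genes, 6 pathway genes and 5 marker genes passed. With the replicate block, which uses the pairing of the arrays, 1210, 17 and 28 passed. Median centring gave 9, 2 and 0 (2272, 28 and 30 at an unadjusted p under 0.05), and moved the median of all genes to -0.29. Median-centred Cy5 gave 25, 3 and 0 (27 marker genes unadjusted), and a filter on all 6 arrays 44, 3 and 2. The scanner's ratio and the deposited table each gave 3 pathway genes and 1 marker gene. Without background subtraction 3 marker genes passed, and without a filter 2. Leaving out 1 array gave 0 to 371 genes in all, 0 to 12 pathway genes and 0 to 7 marker genes. The counts were 0 without Lgr5-positive replicate 1 or 3 (1103 and 911 genes unadjusted), 371 without Lgr5-negative replicate 1, 5 without Lgr5-negative replicate 2 and 21 without Lgr5-negative replicate 3. Members' medians then ran from -2.17 to -1.19, with 6 to 8 members not overlapping. The cause was not tested. All 6 arrays shared 1 slide and 1 scan, so no slide block was run. Dim signal limits Gcnt1, Chst4 and Sele, which had fewer than 3 Lgr5-positive arrays above background.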
